A study of Rattus norvegicus with 81 samples.

Results

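Matrix metalloproteinases (MMPs) are zinc proteases that cut collagens, elastin, fibronectin, laminins and other proteins of the extracellular matrix, and the tissue inhibitors of metalloproteinases (TIMPs) block their active site. Levels of 10 of these genes, Mmp2, Mmp3, Mmp9, Mmp11, Mmp12, Mmp13, Mmp14, Timp1, Timp2 and Timp3, were followed in the mammary gland of the rat. They belong to a protease and inhibitor family, and these 10 were chosen with earlier results of these data known. Each was measured by 1 transcript cluster with a single gene symbol, out of 18166 such genes on the array. Most MMPs are made as inactive proforms and need a cut to become active, so a transcript level is not a measure of protease activity. In the mouse mammary gland, MMPs and TIMPs are known for their part in duct growth and branching, and in the remodelling of the gland after lactation.

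The tissue was the caudal mammary gland of 81 female Sprague-Dawley rats, 1 array per animal, and values are deposited log2 signals. Rats received a low dose of the antibacterial triclosan (TCS), the preservative methyl paraben (MPB) or the plasticiser diethyl phthalate (DEP), and the controls received the vehicle, olive oil (OIL). There were 4 short windows: gestation day (GD) 1-20 through the pregnant dam and postnatal day (PND) 1-20 through the milk of the dosed dam, both sampled at PND 21, then PND 21-41 through milk and then gavage, sampled at PND 42, and PND 42-62 by gavage, sampled at PND 63. A chronic window ran from PND 1 to 145 through mating, pregnancy and lactation, with TCS and OIL females sampled at PND 146, at the end of lactation. Groups held 5 animals, except TCS PND 1-20 (4), TCS PND 21-41 (3), TCS PND 42-62 (3) and the chronic TCS and OIL groups (3 each). All groups of 5 held 3 arrays labelled batch 1 and 2 labelled batch 2, TCS PND 1-20 held 3 and 1, and the groups of 3 held batch 1 only. MPB, TCS and the short-window OIL arrays were read from one table, DEP from a table of 6762 genes with its own normalised copy of the same 20 OIL arrays, and the chronic arrays from a table of their own, so no level was set across tables. Mmp13 was not among the genes of the DEP table, where 9 of the 10 genes were measured.

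Markers of fat and of mammary epithelium were present. The fat marker Adipoq had a median log2 signal of 12.84 in the MPB, TCS and OIL table, a level in the 99.8th percentile of genes, and the epithelial keratins Krt8 and Krt18 had medians of 8.75 and 9.23. The milk protein gene Csn2 had a median of 5.99 there, at the 19.5th percentile of genes. In the chronic table, normalised apart, its median of 13.23 stood at the 100th percentile of the genes of that table. Skeletal muscle transcripts were high on some arrays: a muscle score more than 1 above the median was found on 9 of the 55 MPB, TCS and short-window OIL arrays, on 12 of the 40 arrays of the DEP table and on 1 of the 6 chronic arrays, an OIL array. Lymphocyte markers also varied widely between arrays, with Cd3e between 6.62 and 10.77. RNA came from whole tissue, in which fewer cells of a type and less RNA per cell cannot be told apart.

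Promoter sequence was at hand from RefSeq (build GRCr8, from 250 bases before to 50 after the start) for 7 of the 10 genes, without Mmp2, Mmp9 and Mmp14. It is shown for Mmp3 (stromelysin), Mmp12 (macrophage elastase) and Mmp13 (a collagenase), because these neighbours on chromosome 8, whose starts span 142452 bases, share a word for AP-1, the Fos and Jun transcription factors. The lines end at the base before the start and are on the plus strand, at chr8:12925156-12925280, chr8:12866527-12866651 and chr8:12782704-12782828 in that order, with the AP-1 word in capitals.
Mmp3: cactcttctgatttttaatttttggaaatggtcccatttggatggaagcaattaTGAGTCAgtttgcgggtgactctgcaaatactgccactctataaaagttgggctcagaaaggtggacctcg
Mmp12: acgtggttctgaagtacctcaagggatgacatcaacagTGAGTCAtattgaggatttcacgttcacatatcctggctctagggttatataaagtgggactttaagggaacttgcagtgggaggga
Mmp13: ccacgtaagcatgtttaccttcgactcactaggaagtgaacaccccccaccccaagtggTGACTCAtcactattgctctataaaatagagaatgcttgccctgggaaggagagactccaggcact

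The word TGAGTCA, or TGACTCA read on the opposite strand, began at base -71 from the start in Mmp3, at -87 in Mmp12 and at -66 in Mmp13, where it lay on the opposite strand. It was in 3 of the 7 promoters and in 4.63% of 33469 rat promoters of the same length. The TATA word TATAAA (or TTTATA) was in the same 3 and in 14.2% of all. The Ets word GGAAGT (or ACTTCC) was in Mmp13 alone of the 7 and in 22.6% of all. A match of letters is a description and not a site. As the next paragraphs give, Mmp12 changed most with age, Mmp3 varied between animals of the same age, and Mmp13 stayed low and within a narrow range. A relation of the word to these levels was not tested.

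The first question was how the family changes in control glands between PND 21, before puberty, and PND 42. In the OIL rats, 7 of the 10 genes differed between PND 42 (n = 5) and the pooled perinatal groups at PND 21 (n = 10), against 22.4% of all genes tested (limma, adjusted p under 0.05 over 18166 genes). Mmp12, Mmp11, Mmp14, Timp1, Mmp2 and Timp2 rose, as did 2174 of all genes, Mmp9 fell, as did 1899 of all genes, and Mmp3, Mmp13 and Timp3 did not pass. The median difference of the 10 was 0.58 on the log2 scale, beside 0.01 for all genes. The age groups also differed in how the oil was given, so age and route move together.

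Mmp12, the macrophage elastase, had the widest change. The 5 GD 1-20 OIL arrays ran from 6.20 through a median of 6.32 to 6.68, and the 5 PND 1-20 arrays from 6.30 through 6.68 to 6.72. At PND 42 the arrays read 9.41, 8.13, 8.61, 8.12 and 7.96, and at PND 63 they read 9.89, 9.17, 8.96, 8.35 and 9.58. No PND 42 array came down to the highest PND 21 array. The rise from PND 21 to PND 42 was 1.96 ± 0.21 (SE), or 3.88-fold, with an adjusted p of 6.26e-06, and that to PND 63 was 2.70 ± 0.21, or 6.50-fold (adjusted p = 8.36e-08). Of the 12 genes of the macrophage marker list, 1 rose (Adgre1, by 0.79) and 1 fell (Lyz2, by 0.89), beside 22.4% of all genes in either direction. The list had a median difference of -0.04. Over the 55 MPB, TCS and OIL arrays, with group and batch means subtracted, Pearson r of Mmp12 with that list was 0.349. It was 0.214 in batch 1 and 0.692 in batch 2 (adjusted p = 0.14 for all arrays, by permutation within group and batch). The part of macrophages in the Mmp12 rise was not tested.

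Mmp11, the stromelysin of connective tissue cells that furin can activate inside the cell, read 9.71, 8.18, 8.77, 8.38 and 8.69 at PND 42. The medians at PND 21 were 7.73 (GD 1-20, lowest 7.04, highest 7.84) and 7.50 (PND 1-20, 7.28 to 7.96), so the ages did not overlap. The rise was 1.21 ± 0.27, or 2.31-fold (adjusted p = 0.00288). Mmp14, the membrane-anchored protease that activates the proform of Mmp2 at the cell surface with Timp2 as a bridge, read 11.59, 11.50, 11.46, 12.03 and 12.28 at PND 42, all above the highest PND 21 array at 11.20. Its rise of 1.05 ± 0.11 (2.07-fold) had the smallest adjusted p of the 10, 2.75e-06. Mmp2 itself, gelatinase A, read 12.88, 12.39, 12.68, 12.62 and 12.41 at PND 42 against at most 12.35 at PND 21, a rise of 0.60 ± 0.11 (1.51-fold, adjusted p = 8.8e-04). These 4 proteases had no overlap between PND 21 and PND 42, as had 3.51% of all genes.

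Among the inhibitors, Timp1, which is secreted and blocks many MMPs but is a poor inhibitor of Mmp14, rose by 0.95 ± 0.15 (1.93-fold, adjusted p = 1.86e-04). It read 10.32, 11.07, 10.98, 10.19 and 10.71 at PND 42, and the PND 21 arrays ran from 9.24 to 10.52, so the ages overlapped. Timp2 rose by 0.46 ± 0.08 (1.37-fold, adjusted p = 7.02e-04), with overlap. Timp3, which binds to the matrix and also inhibits ADAM proteases, differed by 0.04 ± 0.11 (95% interval -0.19 to 0.27, adjusted p = 0.868). Its 12 group means in the MPB, TCS and OIL table lay within 0.47 of each other.

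Mmp9, gelatinase B, which leukocytes such as neutrophils and macrophages make, was the only one of the 10 that fell. The PND 21 arrays ran from 6.73 through 8.08 to 8.53 (GD 1-20) and from 6.65 through 7.88 to 8.27 (PND 1-20), and at PND 42 the arrays read 6.35, 6.62, 6.64, 6.65 and 7.29. The ages overlapped because some PND 21 arrays were as low as those at PND 42. The difference was -1.03 ± 0.28 (0.488 of the PND 21 level, adjusted p = 0.0121). Lymphocyte markers fell with it: 10 of 11 B cell and lymph node genes fell, with a median of -1.41, and of 14 T and NK cell genes 9 fell and 1 rose, with a median of -1.83. Of 9 neutrophil genes 4 fell and 1 rose, with a median of -0.62. Ms4a1, a B cell marker, fell by 2.40, and Cd3g, a T cell marker, fell by 3.28. With scores for muscle and for B cells added to the fit, the Mmp9 difference was 0.05 (adjusted p = 0.895). Mmp11, Mmp12, Mmp14 and Timp1 still passed. The B cell score itself fell with age, from OIL group means of 0.557 (GD 1-20) and 0.339 (PND 1-20) to -1.221 at PND 42. Mmp9 followed that score within groups and batches (r = 0.931). Score and age thus moved together, and that fit cannot tell them apart for Mmp9. The part of lymphocytes in the Mmp9 fall was not tested. When muscle-rich arrays were left out, the Mmp9 difference was -0.87 (adjusted p = 0.176), and in batch 2 alone it was -0.46 (adjusted p = 0.196).

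Other cell type lists moved between the same ages. Of the 16 luminal epithelium genes 14 rose, with a median of 1.46, and of the 13 white adipocyte genes all 13 fell, with a median of -0.67. Of the 10 fibroblast genes 4 rose, with a median of 0.48, and of the 9 endothelium genes 7 fell. The part of these shifts in the MMP and TIMP differences was not tested beyond the muscle and B cell covariates above, where the B cell score moved with age. With those covariates Mmp2 differed by 0.39 (adjusted p = 0.103) and Timp2 by 0.34 (adjusted p = 0.0759).

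Mmp3 (stromelysin 1) was the most variable of the genes that did not pass. The PND 42 OIL arrays read 7.38, 6.28, 8.28, 7.57 and 8.45, and the GD 1-20 arrays spanned 6.19 to 8.52. The difference was 0.57 ± 0.29 (adjusted p = 0.184), and it passed when the second PND 42 array was left out (0.86, adjusted p = 0.0311) or the fourth GD 1-20 array (0.72, adjusted p = 0.0455). Mmp13, collagenase 3, differed by 0.17 ± 0.09 (adjusted p = 0.18). The means of Mmp13 over the 12 groups lay between 4.78 and 5.06, a range of 0.29 beside a median SD within groups of 0.18. They were the lowest of the genes followed, below the Csn2 median of 5.99, itself at the 19.5th percentile of genes.

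**Figure D1:**
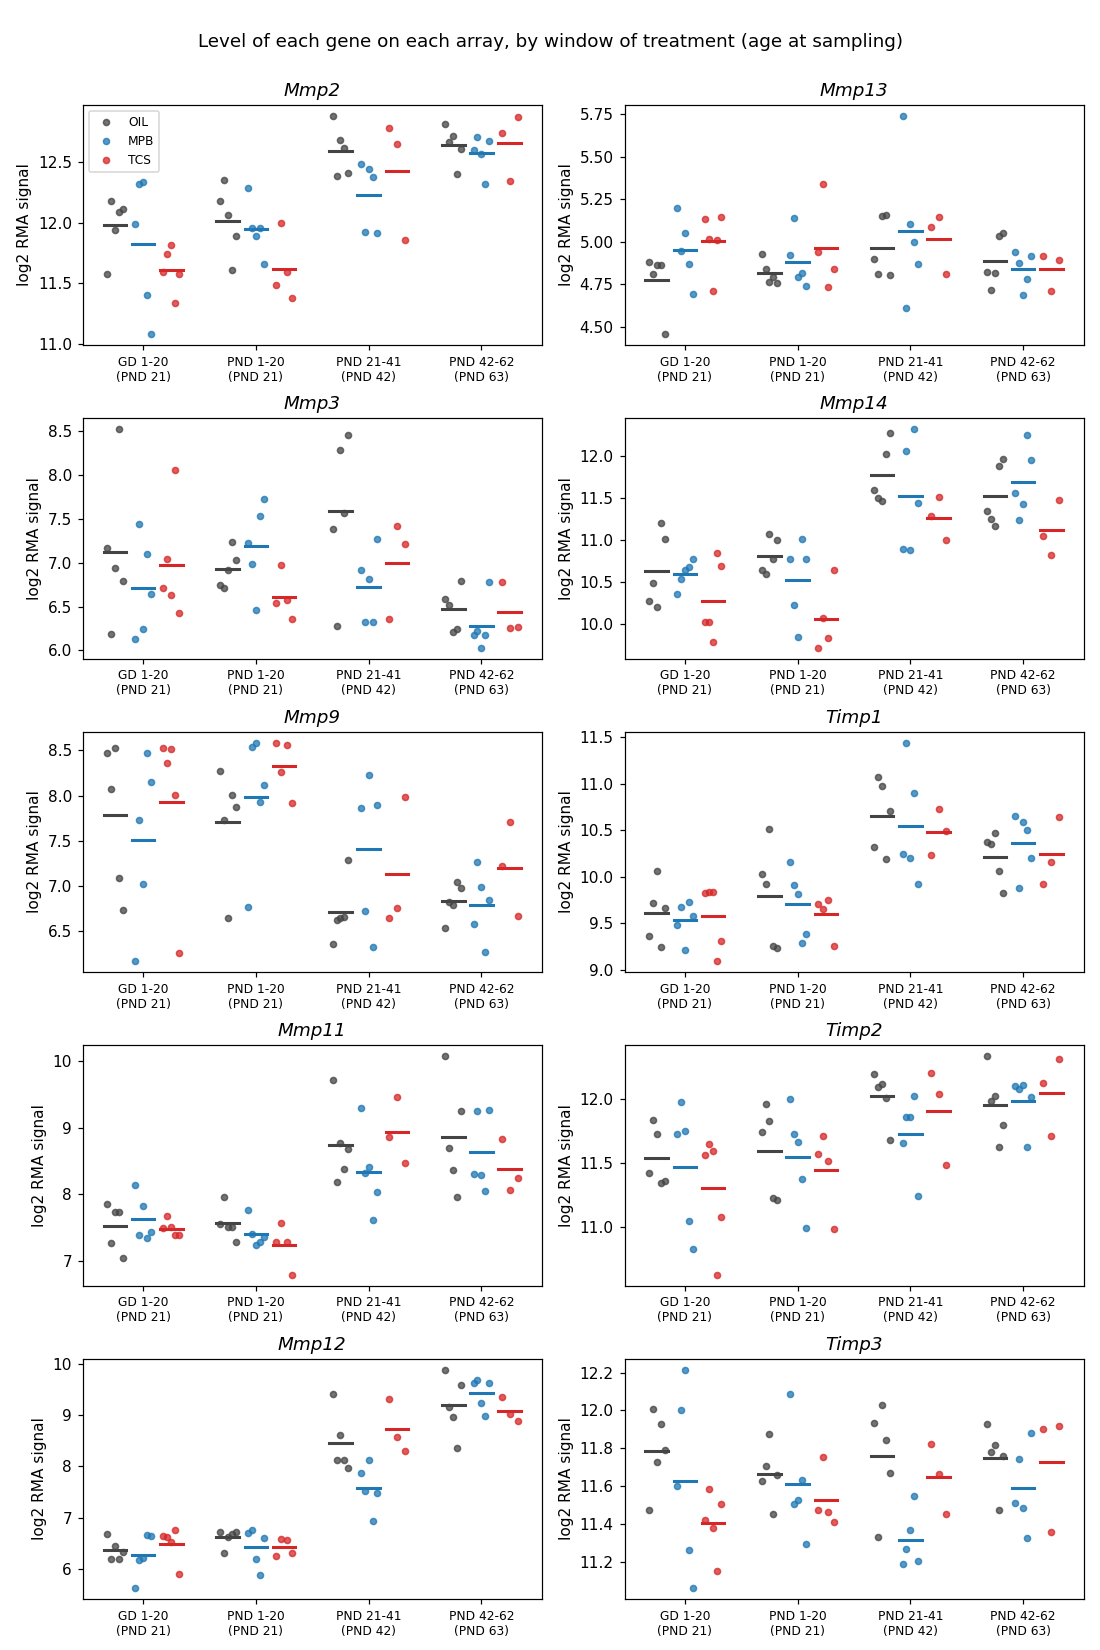
Log2 signal of the 10 genes on each of the 55 MPB, TCS and OIL arrays (points) with group means (bars), by treatment window and age at sampling. Mmp12, Mmp11 and Mmp14 in OIL sit higher at PND 42 and PND 63 than at PND 21, Mmp9 spreads from 6.16 to 8.59 over the treatments at PND 21, and Mmp13 stays near 5.

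From PND 42 to PND 63 no gene of the 10 passed in OIL, beside 0.782% of all genes. At an unadjusted p under 0.05, 3 of the 10 were reached, beside 12.7% of genes: Mmp3 was lower by 1.12 on the log2 scale (-1.12 ± 0.34, adjusted p = 0.132), Mmp12 was higher by 0.74 ± 0.25 (adjusted p = 0.188), and Timp1 differed by -0.44 ± 0.18 (adjusted p = 0.288). All 5 Mmp3 arrays at PND 63, from 6.21 to 6.79, lay below 4 of the 5 at PND 42. When the first PND 42 array, the highest for Mmp12, was left out, the Mmp12 difference was 0.97 and passed (adjusted p = 0.0266). Transcripts of matrix genes fell in the same step: 5 of the 21 matrix substrate genes fell and none rose, among them Eln (elastin) by 0.77, Col5a1 by 0.62 and Col4a1 by 0.52. A relation of these to the MMP levels was not tested. Between PND 63 and PND 21, 7 of the 10 passed in OIL, beside 26.8% of all genes, and they were the same 7 genes in the same direction as at PND 42. The 2 OIL groups sampled at PND 21, GD 1-20 and PND 1-20, had no gene of the 10 past the threshold and none at an unadjusted p under 0.05, beside 0% and 8.54% of all genes.

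The treated groups were read for the same steps, each from its own arrays. Between PND 21 and PND 42, 4 of 10 passed in MPB (7.71% of all genes), 6 of 10 in TCS (13.6%) and 7 of 9 in DEP (35.7% of the 6762 genes of its table, where the OIL copy gave 7 of 9 beside 53.8%). Mmp11, Mmp12, Mmp14 and Timp1 rose in all of them. Mmp12 rose by 1.24 ± 0.21 in MPB, 2.20 ± 0.21 in TCS and 1.71 ± 0.30 in DEP, and Mmp14 by 0.96 ± 0.19, 1.37 ± 0.15 and 1.20 ± 0.13. Mmp2 rose in TCS (0.73 ± 0.19) and DEP (0.61 ± 0.14), and Timp2 in DEP (0.41 ± 0.12). Mmp9 fell by 1.34 on the log2 scale in TCS (adjusted p = 0.0294) and by 0.88 in DEP (adjusted p = 0.0283), and differed by -0.34 ± 0.39 in MPB (adjusted p = 0.703). For MPB, 1 of the 10 passed in batch 1 alone, none in batch 2 alone and 1 without arrays rich in muscle transcripts, while with 1 array left out the count stayed at 3 to 4. For DEP, leaving out the second PND 21-41 array took the count from 7 to 4, batch 2 alone gave 0, and scores for muscle and for B cells in the fit gave 3. For TCS, with 1 array left out the count ran from 4 to 7. Shares of all genes under these alternatives are not given here, so the counts do not show a trait of these genes in particular.

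The step from PND 42 to PND 63 held 1 call in the treated groups, Mmp12 in MPB, beside 0.308% of all genes. The MPB arrays read 7.88, 7.52, 8.13, 6.93 and 7.47 at PND 42 and 9.63, 9.69, 9.24, 8.98 and 9.62 at PND 63, with no overlap, as for 1.81% of genes. The rise was 1.85 ± 0.24, or 3.59-fold (adjusted p = 9.38e-04), and it was 1.68 in batch 1 alone (adjusted p = 0.111) and 2.10 in batch 2 alone (adjusted p = 0.152). The corresponding difference was 0.74 in OIL, 0.36 ± 0.25 in TCS (adjusted p = 1; 0.00550% of all genes passed) and 0.84 ± 0.34 in DEP (adjusted p = 0.427; 0.0887%). Between PND 63 and PND 21, 7 of 10 passed in MPB (18.0% of all genes), 6 of 10 in TCS (17.7%) and 7 of 9 in DEP (29.1%). For MPB 4 passed in batch 1 alone and 3 in batch 2 alone, and for DEP 3 passed without arrays rich in muscle transcripts and 0 in batch 2 alone. With 1 array left out the count ran from 5 to 8 in MPB, 4 to 7 in TCS and 5 to 7 in DEP. Here too the alternatives stand without the share of all genes. Mmp12 rose by 3.09 ± 0.21, 2.56 ± 0.21 and 2.54 ± 0.30 in that order, and Mmp3 fell by 0.67 in MPB (adjusted p = 0.034) and by 0.61 in DEP (adjusted p = 0.048).

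**Figure D2:**
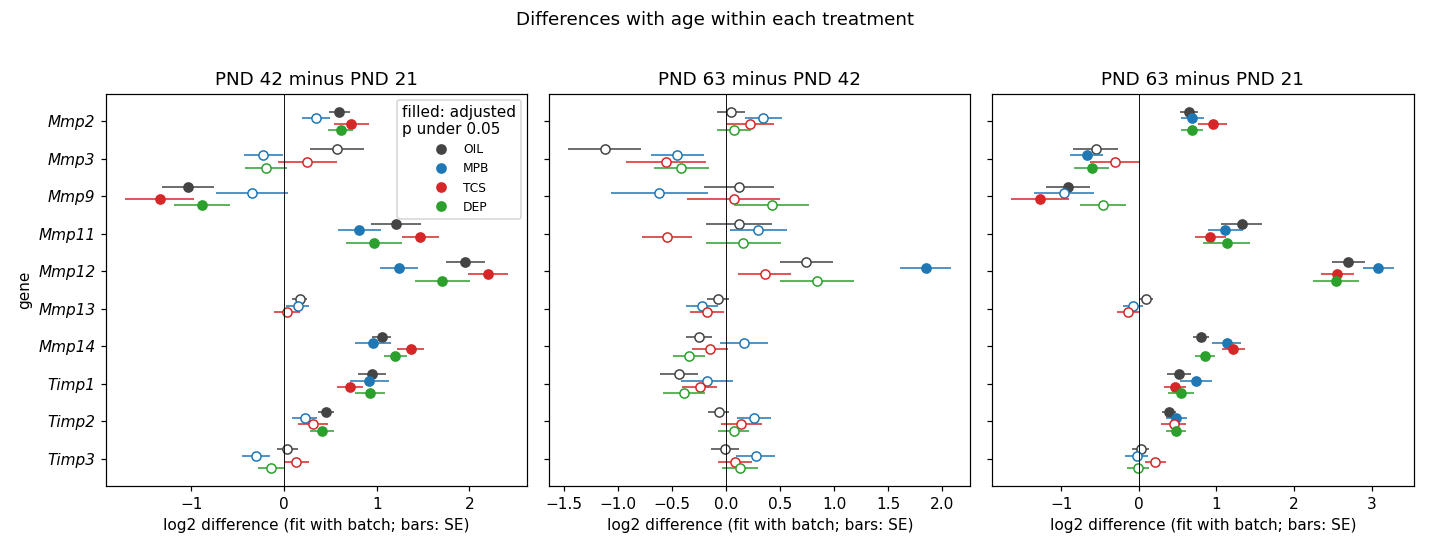
Log2 difference between ages for each gene in OIL, MPB, TCS and DEP, with the standard error as bars and filled points where the adjusted p was under 0.05. Mmp11, Mmp12, Mmp14 and Timp1 are filled on the right of 0 in all treatments between PND 21 and PND 42, and Mmp12 in MPB (1.85) is the only filled point between PND 42 and PND 63.

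The next comparisons asked whether a chemical changed these genes within a window. None of the 10 genes passed in any of the 13 comparisons of a chemical with OIL (limma, adjusted p under 0.05), where 0% to 0.0148% of all genes passed (0.00550% where 1 gene did in the larger table), nor in the 4 comparisons of MPB with TCS, where 0% passed. At an unadjusted p under 0.05, 3 of the 12 short-window comparisons held any of the 10 genes, with 3, 4 and 5 genes. For MPB in the PND 42-62 window no gene of the 10 reached it, beside 17.8% of all genes, and for DEP in the same window none of 9, beside 14.7%. Mmp9 in that DEP comparison differed by 0.38 (adjusted p = 0.415), and when the muscle-rich arrays (3 of the 5 DEP arrays) were left out it differed by 0.98 and passed (adjusted p = 0.0036, the lowest over the alternatives, whose highest was 0.926). None reached it either for MPB at GD 1-20 and PND 1-20 (4.02% and 1.67% of all genes), for TCS at PND 21-41 (364 of 18166 genes) and PND 42-62 (3.01%), or for DEP at GD 1-20, PND 1-20 and PND 21-41 (6.97%, 2.72% and 2.26%). The same OIL arrays serve MPB and TCS in each window, so their differences from OIL are not independent.

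For MPB given at PND 21-41, Mmp12, Timp3 and Mmp3 reached an unadjusted p under 0.05, as did 9.84% of all genes. The MPB arrays for Mmp12, given above, averaged 7.59 ± 0.46 (SD, n = 5) and the OIL arrays 8.45 ± 0.59 (n = 5). 1 MPB array, at 8.13, lay within the OIL range of 7.96 to 9.41. The difference was -0.86 ± 0.25 (SE, adjusted p = 0.508), and it was -0.87 in batch 1 and -0.84 in batch 2. Without arrays rich in muscle transcripts it was -0.51 (adjusted p = 0.562). Timp3 read 11.19, 11.27, 11.37, 11.55 and 11.21 in MPB against 11.93, 11.33, 12.03, 11.85 and 11.67 in OIL, a difference of -0.45 ± 0.13 (adjusted p = 0.508). Mmp3 averaged 6.73 against 7.59, a difference of -0.86 ± 0.36 (adjusted p = 0.508). Median differences in this comparison were 1.31 for the B cell and lymph node list and 1.33 for the T and NK cell list. The luminal epithelium list had a median of -0.39. The part of these lists in the MMP and TIMP differences was not tested beyond a fit with scores for muscle and for B cells.

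For TCS given at PND 1-20, 4 of 10 reached an unadjusted p under 0.05, all lower (6.25% of all genes, 4.56% lower). Mmp14 had the smallest p: TCS arrays read 9.71, 10.07, 9.82 and 10.64 and OIL arrays 10.64, 10.59, 11.07, 10.77 and 10.99. 3 of the 4 TCS arrays lay below all OIL arrays, and the fourth, the only one of batch 2, read 10.64. The difference was -0.67 ± 0.17 (adjusted p = 0.756), and it was -0.90 within batch 1 and -0.24 within batch 2. Mmp2 differed by -0.45 ± 0.18, Mmp11 by -0.37 ± 0.15 and Timp2 by -0.24 ± 0.12. All 21 matrix substrate genes were on the lower side, 12 of them at an unadjusted p under 0.05 and none past the adjusted threshold. The fibroblast list had a median of -0.36, the luminal epithelium list of -0.78 and the T and NK cell list of 0.92. Their part was not tested beyond a fit with scores for muscle and for B cells.

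For TCS given at GD 1-20, 5 of 10 reached an unadjusted p under 0.05 (6.80% of all genes). Timp3 differed by -0.38 ± 0.15, Mmp2 by -0.37 ± 0.16, Mmp14 by -0.36 ± 0.16, Timp2 by -0.24 ± 0.11 and Mmp13 by 0.23 ± 0.11, with adjusted p of 0.725 to 0.732. Groups overlapped for all 5 genes. Mmp13 was low in both groups, with means of 5.00 in TCS and 4.78 in OIL. All 9 endothelium genes were on the lower side, 5 of them at an unadjusted p under 0.05, with a median of -0.27, and the mean score of that list ran from -0.182 to 0.315 in TCS and from 0.235 to 0.594 in OIL. Median differences were -0.33 for the mast cell list, -0.24 for the white adipocyte list, -0.18 for the fibroblast list and 1.06 for the muscle list, and 1 TCS array had a muscle score of 5.143. Without arrays rich in muscle transcripts Timp3 differed by -0.42, Mmp2 by -0.39, Mmp14 by -0.37, Timp2 by -0.27 and Mmp13 by 0.17. The part of the other lists was not tested. Mmp2, Mmp14 and Timp2 were thus on the lower side in both perinatal TCS windows at this unadjusted level, with OIL groups that the 2 windows do not share, although both come from one fit of the PND 21 arrays. TCS at PND 21-41 and PND 42-62 had none of the 10 at that level with 3 TCS arrays each, and the 95% intervals for Mmp14 there ran from -0.87 to 0.35 and from -0.44 to 0.18.

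The difference from OIL was then tested for a change between the 4 windows. No gene of the 10 passed for MPB, TCS or DEP in a moderated F test, in which 0.0165%, 0% and 0.0148% of all genes passed. The smallest p was that of Mmp12 for MPB (adjusted p = 0.552), with differences of -0.11, -0.19, -0.86 and 0.24 from the earliest to the latest window. For the difference at GD 1-20 minus that at PND 1-20 the smallest p was that of Mmp14 in DEP, 0.50 ± 0.20 (adjusted p = 0.578). MPB and TCS differed from each other at an unadjusted p under 0.05 in Mmp14 at GD 1-20 (0.33, 4.26% of all genes), Mmp2 (0.39) and Mmp14 (0.38) at PND 1-20 (3.11%), and Mmp12 at PND 21-41 (-0.88, 3.36%), all as MPB minus TCS. At PND 42-62 none of the 10 did, beside 10.8%. For Mmp12 at PND 21-41 the MPB and TCS arrays did not overlap, as for 2.81% of genes.

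**Figure D3:**
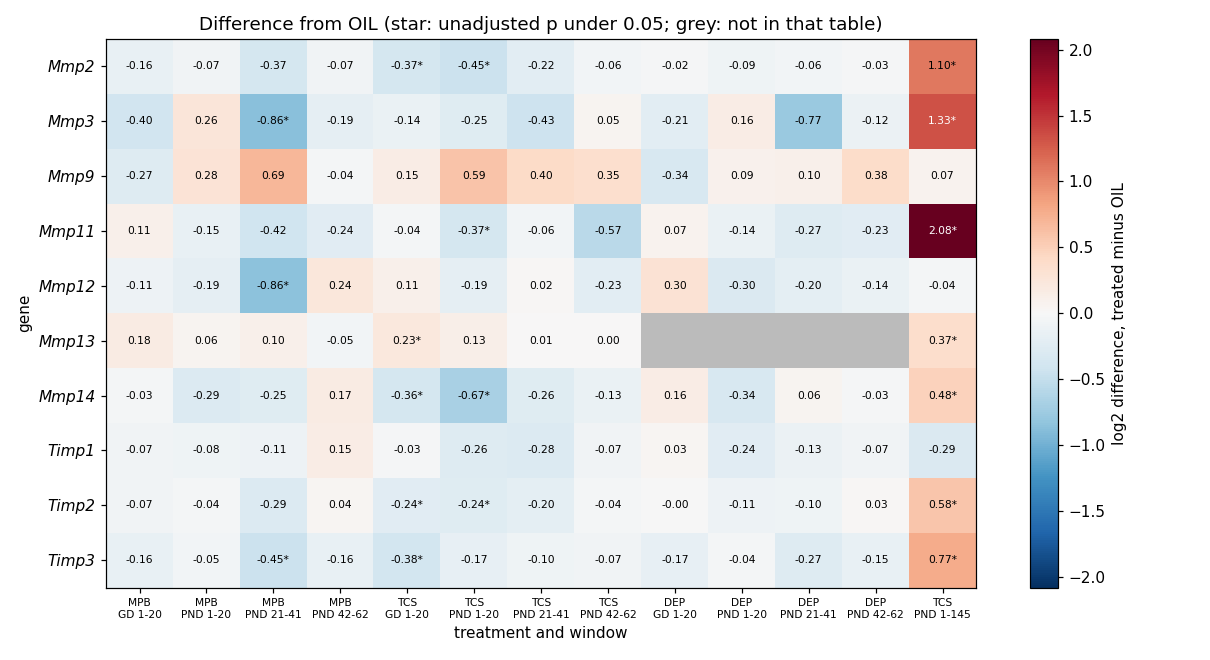
Log2 difference of each chemical from OIL for the 10 genes in 13 comparisons, treated minus OIL, with a star at an unadjusted p under 0.05. Stars stand in MPB PND 21-41 (3), TCS GD 1-20 (5), TCS PND 1-20 (4) and the chronic TCS column (7), and no comparison had a gene with an adjusted p under 0.05.

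After the chronic exposure, at the end of lactation, 7 of the 10 genes were higher in TCS than in OIL at an unadjusted p under 0.05, beside 12.9% of all genes (6.78% higher), and none passed the adjusted threshold, as no gene on the array did (0%). The groups were 3 against 3, all batch 1. Mmp3 read 6.85, 6.49 and 7.80 in TCS and 5.64, 6.15 and 5.37 in OIL, a difference of 1.33 ± 0.34 (adjusted p = 0.297). Mmp11 read 9.12, 7.67 and 9.44 against 8.04, 5.61 and 6.34, the widest difference at 2.08 ± 0.65 (adjusted p = 0.304) and the widest spread within groups, with 1 OIL array above 1 TCS array. Timp3 read 11.01, 10.86 and 11.25 against 10.43, 10.38 and 10.00, a difference of 0.77 ± 0.17 (adjusted p = 0.297).

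Mmp2 differed by 1.10 ± 0.36, Timp2 by 0.58 ± 0.21, Mmp14 by 0.48 ± 0.16 and Mmp13 by 0.37 ± 0.11, with adjusted p of 0.304 to 0.325. Mmp9 (0.07 ± 0.14), Mmp12 (-0.04 ± 0.22) and Timp1 (-0.29 ± 0.39) did not reach the unadjusted level. The groups did not overlap for Mmp3, Mmp13, Mmp14 and Timp3, as for 18.6% of all genes. Mmp13 had the lowest means of the 10 there, 3.34 in OIL and 3.71 in TCS. The median difference of the 10 was 0.53, beside 0.01 over all genes. The matrix substrate list stood much the same, with a median of 0.55 and 13 of 21 genes at an unadjusted p under 0.05, and the median was 0.74 in the white adipocyte list, 0.55 in the fibroblast list, 0.54 in the macrophage list, 0.46 in the endothelium list and 0.39 in the mast cell list. It was -0.41 in the luminal epithelium list and -0.93 in the skeletal muscle list. The summed level of the adipocyte list, as a mean of centred log2 values, ran from 0.001 to 0.916 in TCS and from -0.434 to -0.302 in OIL. The endothelium and mast cell scores were also apart, with TCS from 0.173 to 0.397 and from 0.148 to 0.197, and OIL from -0.366 to -0.183 and from -0.25 to -0.126. So was the B cell and lymph node score, with TCS from 0 to 0.459 and OIL from -0.364 to -0.078. The part of these cell type lists in the MMP and TIMP differences was not tested beyond the fits that follow. With scores for muscle and for B cells in the fit Mmp2 differed by 0.52, Mmp3 by 0.64 and Mmp11 by 1.30. Since the B cell score separated the groups and the arrays were few, that fit cannot tell score and treatment apart. Without the OIL array rich in muscle transcripts Mmp2 differed by 0.97, Mmp3 by 1.15 and Mmp11 by 1.92.

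**Figure D4:**
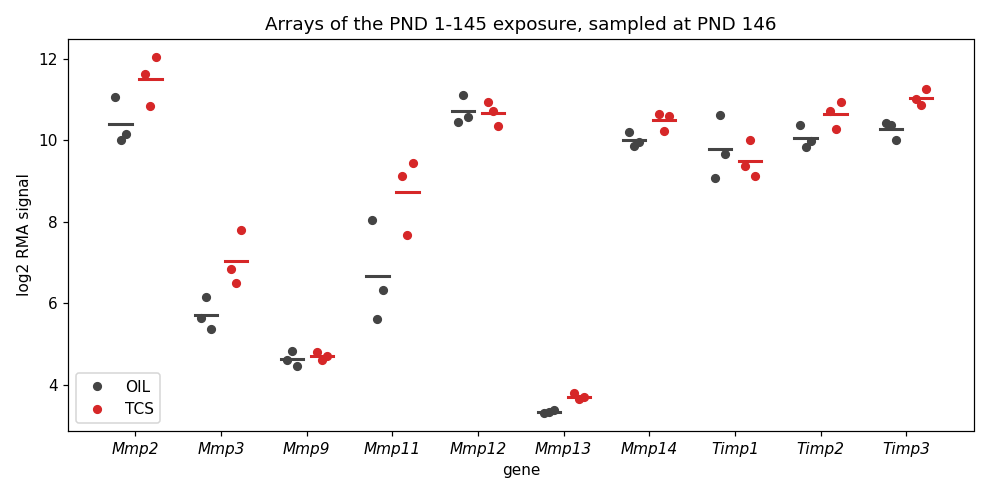
Log2 signal of the 10 genes on the 3 chronic TCS and 3 chronic OIL arrays (points) with group means (bars). TCS and OIL points are apart for Mmp3, Mmp13, Mmp14 and Timp3 and mixed for Mmp9, Mmp12 and Timp1.

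The 10 genes also varied between animals of the same group. Over the 55 MPB, TCS and OIL arrays, after the mean of each group and batch was subtracted, Mmp2, Timp2 and Timp3 went together: Pearson r was 0.775 for Mmp2 with Timp2 (Spearman rho 0.759), 0.766 for Mmp2 with Timp3 (rho 0.81) and 0.713 for Timp2 with Timp3 (rho 0.764). Adjusted permutation p for r and for rho were between 2.2e-04 and 4.5e-04 over 45 pairs, from 100000 permutations within group and batch, whose smallest possible raw p is 1e-05. Leaving out the 2 farthest arrays gave 0.733, 0.751 and 0.739. Within batch 1 these correlations were 0.762, 0.722 and 0.66, and within batch 2 0.901, 0.929 and 0.859. Mmp9 went against Mmp14 (r = -0.677, rho = -0.622, adjusted permutation p = 0.014 and 0.0087; -0.596 without the 2 farthest arrays; -0.759 in batch 1 and -0.435 in batch 2). Mmp14 and Mmp2, which meet at the cell surface, were not among the 12 of 45 pairs whose r passed an adjusted p of 0.05.

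Cell type lists were set against the same residuals, in 120 relations of which 20 passed for r. Mmp9 followed the T and NK cell list (r = 0.946, rho = 0.861, 0.933 without the 2 farthest arrays, 0.946 in batch 1 and 0.949 in batch 2) and the B cell and lymph node list (r = 0.931, rho = 0.854), each with an adjusted permutation p of 2.4e-04 for r and 3e-04 for rho. Its r with the neutrophil list was 0.677 and with the macrophage list 0.656. Mmp14 went against the T and NK list (r = -0.746, rho = -0.649, adjusted permutation p = 0.0031 and 0.0051; -0.813 in batch 1 and -0.53 in batch 2) and the B cell list (r = -0.745). It went with the basal and myoepithelium list (r = 0.574, adjusted permutation p = 0.0028) and the luminal epithelium list (r = 0.474, adjusted permutation p = 0.009). Timp2 followed the fibroblast list (r = 0.808, rho = 0.723, adjusted permutation p = 6e-04 and 8.6e-04; 0.829 and 0.788 within the batches). Mmp2 and Timp3 followed the endothelium list (r = 0.716 and 0.749, adjusted permutation p = 2.4e-04 for each). None of these 3 genes was particular to 1 list. Mmp2 also passed with the fibroblast (r = 0.702) and mast cell (0.668) lists. Timp3 did so with the mast cell (0.658) and white adipocyte (0.555) lists, and Timp2 with the endothelium (0.629) and mast cell (0.514) lists. All genes of an array share its RNA and its scan, and the part of either or of cell make-up in these relations was not tested.

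**Figure D5:**
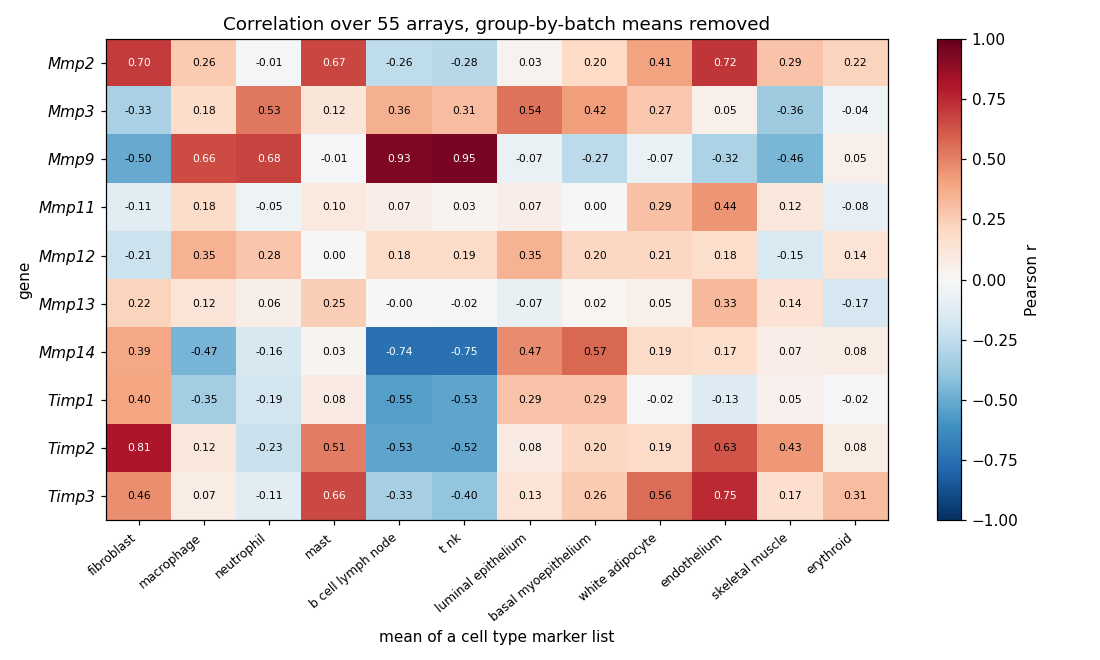
Pearson r over 55 arrays between each of the 10 genes and the mean of each of 12 cell type marker lists, after group and batch means were removed. Mmp9 is deepest red with the T and NK (0.946) and B cell (0.931) lists, Mmp14 is blue with the same lists, and Timp2 is red with fibroblast (0.808).

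Genes whose level was most like each member over the 55 arrays were found by Pearson r, as a description with no test. For Mmp12 they were Gzma (a granzyme of cytotoxic lymphocytes, 0.943) and Scgb1d2-ps1 (0.942), for Mmp11 Pigz (0.891) and Rab17 (0.884), for Mmp14 Arhgef28 (0.921) and Stox2 (0.906), and for Mmp2 Enpp3 (0.915) and Casp12 (0.908). Mmp9 was most like Myo1g (0.962) and Tnfsf11 (0.961), and after removal of group and batch means Malt1 (0.956), a signalling protease of lymphocytes, and Septin1 (0.955). Timp1 was most like Cacna1g (0.895) and Prdm6 (0.892), Timp2 like Mxra8 (0.922) and Cpxm1 (0.915), and Timp3 like Tgfbr3 (0.895) and Prelp (0.836). Mmp3 and Mmp13 had lower highest values, 0.617 (Slc6a14) and 0.589 (Taar7d). After removal of group and batch means these were 0.72 for Mmp3 (Plet1) and 0.726 for Mmp13 (Or51k7), beside 0.77 for Mmp11 (Gpnmb) and 0.768 for Mmp12 (Tacr1).

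The rest of the proteolytic system was read in OIL between PND 21 and PND 42, from lists of related genes, beside the 22.4% of all genes that passed in that comparison. Of 14 other MMP and TIMP genes 2 rose and 4 fell: Timp4, an inhibitor known from fat and heart, fell by 1.34 on the log2 scale, Mmp8, the neutrophil collagenase, fell by 1.27, and Mmp27 rose by 0.81. Of 21 ADAM and ADAMTS genes 10 rose and 1 fell, led by Adamts18 (1.08), Adamts4 (0.90), an aggrecan-cutting protease, and Adam12 (0.83). Adam12 then fell by 0.97 from PND 42 to PND 63, the only one of that list to pass in that step. Of 8 genes of the plasminogen system 2 rose, a share near that of all genes: Plg (plasminogen, 1.09) and Plat (tissue plasminogen activator, 0.55). Of 12 activators and other inhibitors 3 rose and 1 fell: Furin, which activates Mmp11 and Mmp14, rose by 0.80, Reck, a membrane-bound inhibitor of MMPs, rose by 0.66, and A2m, a plasma protease inhibitor, fell by 1.33. Of 21 matrix substrate genes 5 rose and 1 fell, also near the share of all genes, with Fn1 (fibronectin) up by 0.78. Of 13 AP-1, Ets and Runx factors 5 rose and 1 fell: Elf3 (1.28) and Runx1 (0.88) rose, and Ets1, which lymphocytes also express, fell by 1.47. None of these genes passed in a comparison of a chemical with OIL, where at most 0.0148% of genes did.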

How the data were processed

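Per the labels, RNA from caudal mammary glands (integrity number of at least 7) went to arrays at 250 ng, and per the submitters' processing notes the authors made the deposited log2 values with Affymetrix Expression Console and RMA; versions and genome build are not given in the sources used here. The array's signal and the number of arrays limit the precision; there is no read depth. Of 36685 transcript clusters in the full tables, those with a single symbol were kept and the cluster of highest mean was used per gene (18166 genes; 7780 clusters and 6762 genes in the DEP table). OIL columns of the DEP table hold smaller batch differences (SD over genes 0.169 against 0.401), so DEP was compared within its own table.

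Differences were fitted with limma 3.58.1 (R 4.3.3), with batch as a term outside the chronic table, in 37 comparisons. p-values were adjusted by Benjamini-Hochberg over all genes, two-sided, with a threshold of 0.05. OIL age steps used the 20 OIL arrays, and each chemical was compared with OIL over all arrays of the same age. Scripts were tested on simulated data. The permutation p for correlations within groups were added after the values were seen. The members and gene lists were chosen with earlier results of these data known. All 10 members are described; of each other list at most 3 genes per comparison, those with the largest difference among genes past the threshold, are named, and 2 genes of highest Pearson r per member. Alternatives were another filter, centring, batch handling, covariates, other deposited tables, arrays left out and other sets of arrays in the fit. Labels name 1 pup per litter for the perinatal groups, and p-values measure the spread between animals.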

Additional observations from a re-analysis of the deposited data

Results flagged for a closer look

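Among 136 groups of 4 or 5 arrays, each 1 gene in 1 treatment group, 9 held an array far from the rest of its group, as a gap to the nearest other array that was large beside the range of the group. Chance alone flags about 1 in 20 such groups. In TCS GD 1-20, the fifth array read 6.25 for Mmp9, with the others from 8.01 to 8.52, and 5.89 for Mmp12, with the others from 6.51 to 6.75. In DEP GD 1-20, the fourth array read 7.57 for Mmp12 against at most 6.19 on the others, and 8.41 for Mmp11 against at most 7.42. In MPB PND 42-62, the fifth array read 6.77 for Mmp3 and the fourth read 11.63 for Timp2, where the next lowest read 12.02. The second OIL PND 1-20 array read 6.30 for Mmp12, the fifth OIL GD 1-20 array read 4.46 for Mmp13, and the second DEP PND 21-41 array read 9.80 for Timp1. Of these arrays, those of TCS GD 1-20 (muscle score 5.143), DEP GD 1-20 (0.631) and OIL PND 1-20 (0.771) were rich in muscle transcripts. The other flagged arrays were not, and a part of muscle in these values was not tested.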

How the results depend on the processing

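Counts of the 10 genes past the threshold moved as follows. They stand without the share of all genes under each alternative, so they do not show a trait of these genes in particular. With scores for muscle and for B cells in the fit, OIL PND 42 against PND 21 gave 4 instead of 7 (in the table with DEP also 4), OIL PND 63 against PND 42 gave 1 instead of 0 (2 in the table with DEP), and DEP PND 42 against PND 21 gave 3 instead of 7. In batch 1 alone MPB PND 42 against PND 21 gave 1, MPB PND 63 against PND 42 gave 0, and MPB PND 63 against PND 21 gave 4. MPB against TCS at GD 1-20 gave 2 in batch 1 alone (Mmp9 -1.50, Mmp12 -0.58). There all 3 MPB arrays were rich in muscle transcripts, with scores of 5.374, 3.751 and 0.99. The 3 TCS arrays scored -0.612, -0.673 and -0.407, and a part of muscle in these 2 calls was not tested. In batch 2 alone the counts were 0, 0 and 3 for the MPB ages and 3 for OIL PND 63 against PND 21. They were 0 for both DEP steps from PND 21, and 1 for OIL GD 1-20 against PND 1-20 in the table with DEP. Without arrays rich in muscle transcripts MPB PND 42 against PND 21 gave 1, DEP PND 63 against PND 21 gave 3, OIL PND 63 against PND 42 in the table with DEP gave 1, and DEP against OIL at PND 42-62 gave 1 (Mmp9, 0.98). With 1 array left out, the counts ran from 0 to 1 for OIL PND 63 against PND 42 (0 to 2 in the table with DEP) from 4 to 7 for DEP PND 42 against PND 21, and from 4 to 7 for TCS in both steps from PND 21. Mmp9 turned sign with those scores in OIL PND 42 against PND 21 (0.0493, adjusted p = 0.895) and in batch 2 alone for OIL GD 1-20 against PND 1-20 in the table with DEP (-0.89, adjusted p = 0.0458). Batch alone means fewer arrays in the fit; the other causes were not tested. Of the single-gene values under these alternatives, 7257 stayed on their side of the threshold, and of these 6793 kept their sign and 464, all past the threshold in neither fit, changed it. A further 146 lost a call, 23 gained one and 2 turned sign with a call in one of the fits. No paired analysis was possible because each array is a different animal and the labels tie no animals across groups.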
